A study of Homo sapiens with 8 samples.

Results

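The ATF4 stress response genes and the cytosolic tRNA synthetases were followed in U-2OS cells depleted of CGGBP1, a protein that binds CGG repeats. The set was chosen by gene symbol, with earlier results of these data known, and holds 34 of the 18388 genes counted by SLAM-Seq. It consists of 10 regulators and stress genes, 6 enzymes of serine, one-carbon and asparagine synthesis, 5 amino acid transporter genes, the tRNA export receptor XPOT and 12 cytosolic aminoacyl-tRNA synthetases. All 34 symbols were found, and 32 had enough reads to be tested. After CGGBP1 depletion 5 of the 32 were called lower in total RNA (adjusted p under 0.05 by edgeR), against 1.21% of all tested genes. They were ATF4, ASNS, PHGDH, MTHFD2 and SLC7A11, the last of which reached the read filter through its siControl libraries alone. Of the members 0 were called higher, against 0.543% of all tested genes.

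ATF4 is the transcription factor of the integrated stress response. Kinases that sense amino acid shortage, unfolded proteins, heme shortage or viral RNA phosphorylate the translation factor eIF2, which lowers general protein synthesis but favours translation of the ATF4 mRNA. ATF4 then pairs with C/EBP proteins and binds C/EBP-ATF response elements in genes that make, import and charge amino acids onto tRNAs. Proliferating cancer cells also use this programme to supply serine, glycine and asparagine.

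U-2OS Tet-ON is a human osteosarcoma line that carries the tetracycline-regulated transactivator. Cells of both groups were transfected with 50 nM of either control siRNA (siControl) or a pool of siRNAs against CGGBP1 (siCGGBP1) for 72 h, and received 75 µM 4-thiouridine (4sU) for the last 60 min. Each group has 3 libraries. Every sample title also carries the word DMSO, in both groups. Single siControl libraries with 0 and 200 µM 4sU, made after the same 72 h, were not part of the comparison. In SLAM-Seq, 4sU built into new RNA is alkylated with iodoacetamide and read as a T-to-C conversion, and these conversions give an estimate of how much of a gene's RNA is new (the new-to-total ratio). The reads come from the 3′ ends of polyadenylated RNA, and each of the 6 compared libraries holds between 10127519 and 14221516 of them. Reads are given here normalized for library size by TMM. A gene is called lower or higher at an adjusted p under 0.05 (edgeR's quasi-likelihood test, Benjamini-Hochberg over the 10138 genes that reached 100 reads in 3 or more of the 6 libraries), and errors of log2 fold changes are standard errors (SE). Nothing in the labels says whether the 3 libraries of a group came from separate experiments, so the p-values measure the spread between these samples. The libraries were made from bulk cells, so fewer cells of a kind and less RNA per cell cannot be told apart.

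CGGBP1 itself had 1241, 1078 and 889 normalized reads in siControl and 210.1, 116 and 359 in siCGGBP1 (log2 fold change -2.22, SE 0.39, adjusted p = 0.0137 by edgeR). The mesenchymal marker VIM was high in all 6 libraries, while CDH1, CD3E and PECAM1 had 0 reads, PTPRC had at most 7.88 normalized reads and the epithelial marker EPCAM stayed between 53.1 and 151 normalized reads. COL1A1 and SPARC, other markers of the line, were called higher in siCGGBP1, with log2 fold changes of 1.31 and 1.26. Their part in the results below was not tested. RUNX2, also a planned marker of the line, was tested and not called. The planned markers COL1A2, TWIST1 and ALB were not found among the genes counted. Both libraries numbered 3 stand apart. Among the 10138 tested genes, 49 had 0 reads in siControl replicate 3 and 136 in siCGGBP1 replicate 3, against at most 1 in each of the other 4 libraries.

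To see which members carry the element that ATF4 dimers recognize, the letters TGATGNAA were searched on both strands of RefSeq promoter windows (GRCh38.p14) that run from 250 bases before to 50 bases after each start of transcription. Windows were found for 28 of the 34 members, and 12 of these 28 (42.9%) hold the letters. The share was 3.62% over all 35116 windows and 2.72% over the 7944 tested genes with a window. The 9 stretches below are shown because they include ASNS, the member with the motif that was called, CEBPG, whose product can partner ATF4, and the 7 synthetases that share the motif. They are written 5′ to 3′ on the strand of the gene, with the motif or its reverse complement in capitals.
ASNS (chr7:97872458-97872487, minus strand): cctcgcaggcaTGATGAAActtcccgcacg
CEBPG (chr19:33374060-33374089, plus strand): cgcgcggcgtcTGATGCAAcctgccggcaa
NARS (chr18:57621804-57621833, minus strand): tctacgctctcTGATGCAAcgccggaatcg
TARS (chr5:33440956-33440985, plus strand): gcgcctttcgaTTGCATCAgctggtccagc
MARS (chr12:57488053-57488082, plus strand): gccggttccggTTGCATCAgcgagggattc
AARS (chr16:70289675-70289704, minus strand): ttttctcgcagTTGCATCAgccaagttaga
IARS (chr9:92293692-92293721, minus strand): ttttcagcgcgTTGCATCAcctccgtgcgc
CARS (chr11:3057407-3057436, minus strand): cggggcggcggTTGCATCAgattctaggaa
GARS (chr7:30594834-30594863, plus strand): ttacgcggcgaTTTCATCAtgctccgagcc

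TARS, MARS, AARS, IARS and CARS hold the same 8 letters, TTGCATCA, and NARS and CEBPG hold their reverse complement. The other members with a match were CHAC1, SLC3A2 and SLC7A1. No match was found in the windows of ATF4, PHGDH and MTHFD2, and there was no window for SLC7A11, NUPR1, PSPH, SHMT2, YARS and LARS. A run of CGGCGGCGG on either strand was found for 2 of the 28 members, CEBPG and SLC7A1 (7.14%), against 14.7% of the tested genes with a window. A match of letters is a description of the window and does not show binding.

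Over all 32 tested members, 28 (87.5%) had a negative log2 fold change in total RNA, against 50.2% of all tested genes. The 5 called lower are 15.6% of the tested members, against 1.21% of all tested genes called lower. With 1 library left out the count lay between 2 and 5, at 2 without siCGGBP1 replicate 1 and at 3 without siCGGBP1 replicate 2, siControl replicate 1 or siControl replicate 2. None was called higher, against 0.543% of all tested genes, and 0 members were called higher by DESeq2. The 3 siCGGBP1 libraries lay below the 3 siControl libraries without overlap for 16 members (50.0%), against a background of 12.3%, and above them for 0 members, against 12%. The median log2 fold change of the tested members was -0.56, and that of all tested genes -0.003. SLC7A11, counted among the 5 and the 16, reached the read filter through its siControl libraries alone. The members were chosen with earlier results of these data known, so their shares were not tested against those of all genes.

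**Figure D1:**
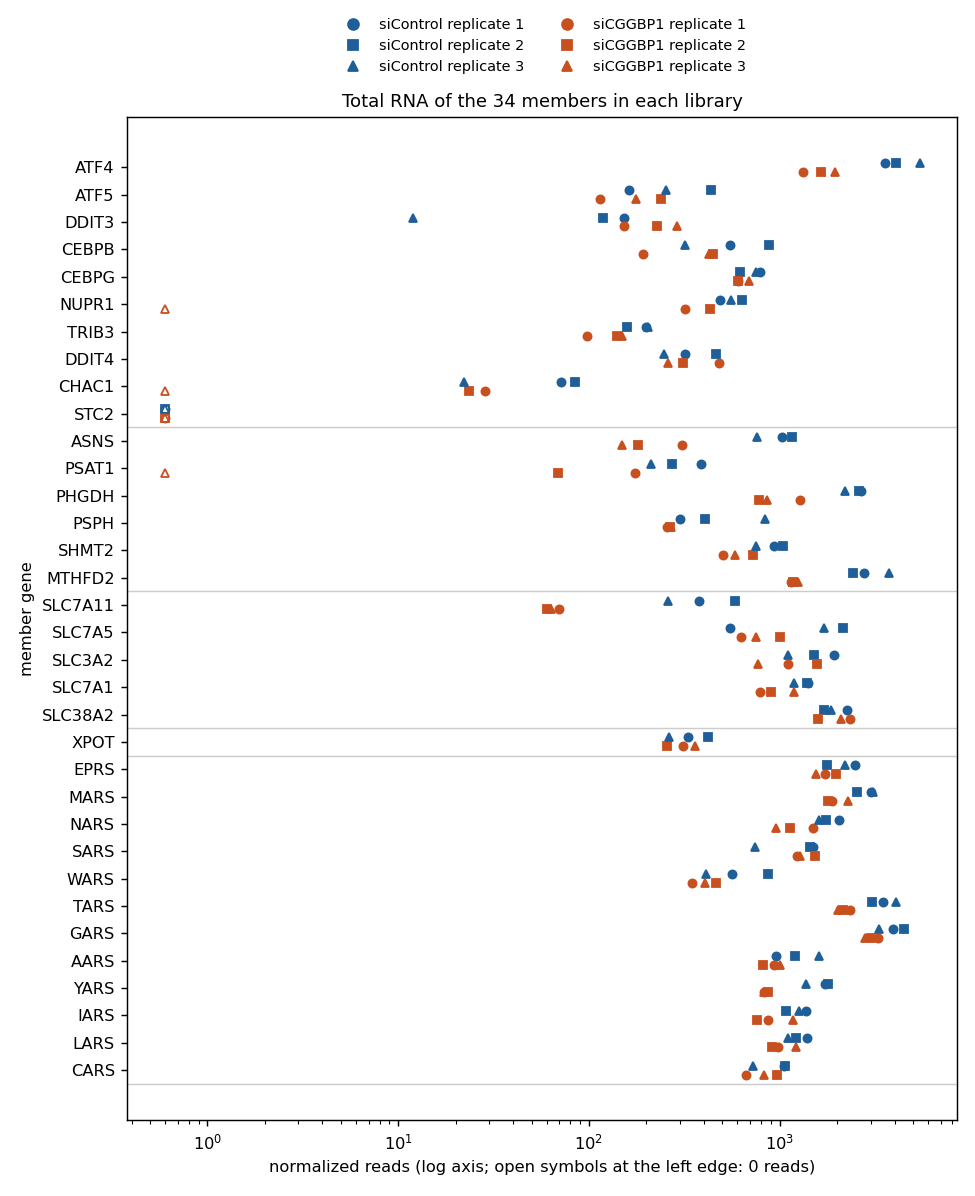
Normalized reads of total RNA (log axis) of the 34 members in each of the 3 siControl (blue) and 3 siCGGBP1 (orange) libraries, grouped by role from regulators at the top to synthetases at the bottom; the marker shape gives the replicate. ATF4, ASNS, PHGDH, MTHFD2 and SLC7A11 show 2 separate clouds, while DDIT4, SLC38A2 and SARS overlap, and 4 members, STC2 among them, have open symbols for 0 reads in siCGGBP1 replicate 3.

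ATF4 (GRCh38 chr22:39519695-39522683, plus strand) was the regulator with a clear change. It had 3552, 4092 and 5420 normalized reads in siControl and 1332, 1645 and 1955 in siCGGBP1. All siCGGBP1 libraries lay below all siControl libraries, and the mean fell 2.65-fold (log2 fold change -1.40, SE 0.22, adjusted p = 0.0091 by edgeR). With each library left out in turn the adjusted p ran from 0.00951 to 0.0732, the latter without siCGGBP1 replicate 1.

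Of the other 7 tested regulators none was called. TRIB3, a pseudokinase that ATF4 induces and that feeds back on it, had 199.5, 159 and 203 normalized reads in siControl and 98.2, 139.8 and 149.7 in siCGGBP1. These groups did not overlap, but the difference did not pass the test (log2 fold change -0.53, SE 0.55, adjusted p = 0.695 by edgeR). CHAC1, a glutathione-degrading enzyme, was too low to be tested, with 71.5, 84.3 and 22.0 normalized reads in siControl and 28.5, 23.6 and 0 in siCGGBP1. STC2, which encodes the secreted glycoprotein stanniocalcin, had 0 reads in every library.

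DDIT3, which encodes the stress transcription factor CHOP, had the largest positive log2 fold change of the tested members, at 1.24 (SE 0.78, adjusted p = 0.474 by edgeR). It had 153, 118 and 12 normalized reads in siControl and 153, 226 and 289 in siCGGBP1, so the groups overlapped and siControl replicate 3 was far below the other libraries. The log2 fold change was 0.72 without that library. The 3′ ends of DDIT3 and MARS overlap by 982 bases on opposite strands, and how strand was used in counting is not given in the sources used here, so reads of these genes could not be assigned with certainty.

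DDIT4, an inhibitor of the growth kinase mTORC1, had 321, 461 and 248 normalized reads in siControl and 479.5, 312 and 259 in siCGGBP1 (log2 fold change 0.03, SE 0.39, adjusted p = 0.984 by edgeR). Its groups overlapped. ATF5 and CEBPB, transcription factors of the same bZIP family as ATF4, had log2 fold changes of -0.69 and -0.71 with overlapping groups, and of -0.23 and -0.29 without siControl replicate 2. CEBPG had -0.19, also with overlap. NUPR1, a small stress-induced chromatin protein, had -1.16 with an SE of 1.00 and 0 reads in siCGGBP1 replicate 3, and the value was -0.56 without that library.

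Of the 6 synthesis enzymes 3 were called lower, against 1.21% of all tested genes. All 6 had negative log2 fold changes with no overlap between the groups, against 12.3% of all tested genes. Their median was -1.34. ASNS (GRCh38 chr7:97851677-97872542, minus strand), asparagine synthetase, is a classical ATF4 target. It had 1031, 1158 and 764 normalized reads in siControl and 306, 180.2 and 149.7 in siCGGBP1. The mean fell 4.65-fold (log2 fold change -2.22, SE 0.35, adjusted p = 0.00822 by edgeR), and it was the member that stayed called whichever single library was left out, with an adjusted p of at most 0.0477.

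PHGDH (GRCh38 chr1:119648411-119744218, plus strand) catalyses the first step of serine synthesis from a glycolytic intermediate. It had 2655, 2601 and 2209 normalized reads in siControl and 1273, 782 and 856 in siCGGBP1. The groups were well apart (log2 fold change -1.36, SE 0.24, adjusted p = 0.0137 by edgeR). The adjusted p rose to between 0.0578 and 0.0644 without siCGGBP1 replicate 2 or siControl replicate 1 or 2.

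PSAT1 and PSPH carry out the next steps of serine synthesis. PSAT1 had 388, 271 and 212 normalized reads in siControl and 175, 68.9 and 0 in siCGGBP1. The groups did not overlap, yet the spread was too wide for a call (log2 fold change -1.84, SE 1.09, adjusted p = 0.435 by edgeR). Without siCGGBP1 replicate 3, which had 0 reads, the log2 fold change was -1.25. For PSPH the log2 fold change was -0.97 (adjusted p = 0.26 by edgeR), and -0.43 without siControl replicate 3, its highest library.

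MTHFD2 and SHMT2 are mitochondrial enzymes that pass the one-carbon unit of serine on to folate. MTHFD2 (GRCh38 chr2:74186172-74217565, plus strand) had 2763, 2411 and 3718 normalized reads in siControl and 1140, 1174 and 1251 in siCGGBP1. The siCGGBP1 values were close together and all below siControl (log2 fold change -1.32, SE 0.22, adjusted p = 0.0108 by edgeR). With each library left out in turn the adjusted p ran from 0.0155 to 0.0743, the latter without siCGGBP1 replicate 1. Its 3′ end lies within annotated transcripts of the opposite strand, SLC4A5 among them. For SHMT2 the log2 fold change was -0.59 (adjusted p = 0.303 by edgeR).

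Among the transporters, SLC7A11 (GRCh38 chr4:138164097-138242349, minus strand), the cystine-glutamate antiporter subunit that supplies cystine for glutathione, had the largest negative log2 fold change of all tested members. It had 379, 584 and 258 normalized reads in siControl and 69.6, 60.1 and 63.4 in siCGGBP1. Before normalization the siCGGBP1 libraries held 61, 61 and 78 reads, each under the 100 of the filter. The gene was thus tested through its siControl libraries alone. The siCGGBP1 mean was 15.8% of the siControl mean (log2 fold change -2.66, SE 0.49, adjusted p = 0.0183 by edgeR). The adjusted p lay between 0.0666 and 0.16 when siCGGBP1 replicate 1 or 2 or siControl replicate 1 or 2 was left out.

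The other transporter genes were not called, and their group median including SLC7A11 was -0.47. SLC7A5 and SLC3A2 encode the light and heavy chain of the leucine transporter LAT1, and their log2 fold changes were -0.90 and -0.40 with overlapping groups. Without siControl replicate 2 that of SLC7A5 was -0.52, and without siCGGBP1 replicate 3 that of SLC3A2 was -0.17. SLC7A1, the cationic amino acid transporter, had -0.47 without overlap (adjusted p = 0.359 by edgeR). SLC38A2, a neutral amino acid transporter that cells raise when starved of amino acids, had 2249, 1705 and 1867 normalized reads in siControl and 2350, 1594 and 2108 in siCGGBP1. Its groups overlapped (log2 fold change 0.06, SE 0.22, adjusted p = 0.933 by edgeR).

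**Figure D2:**
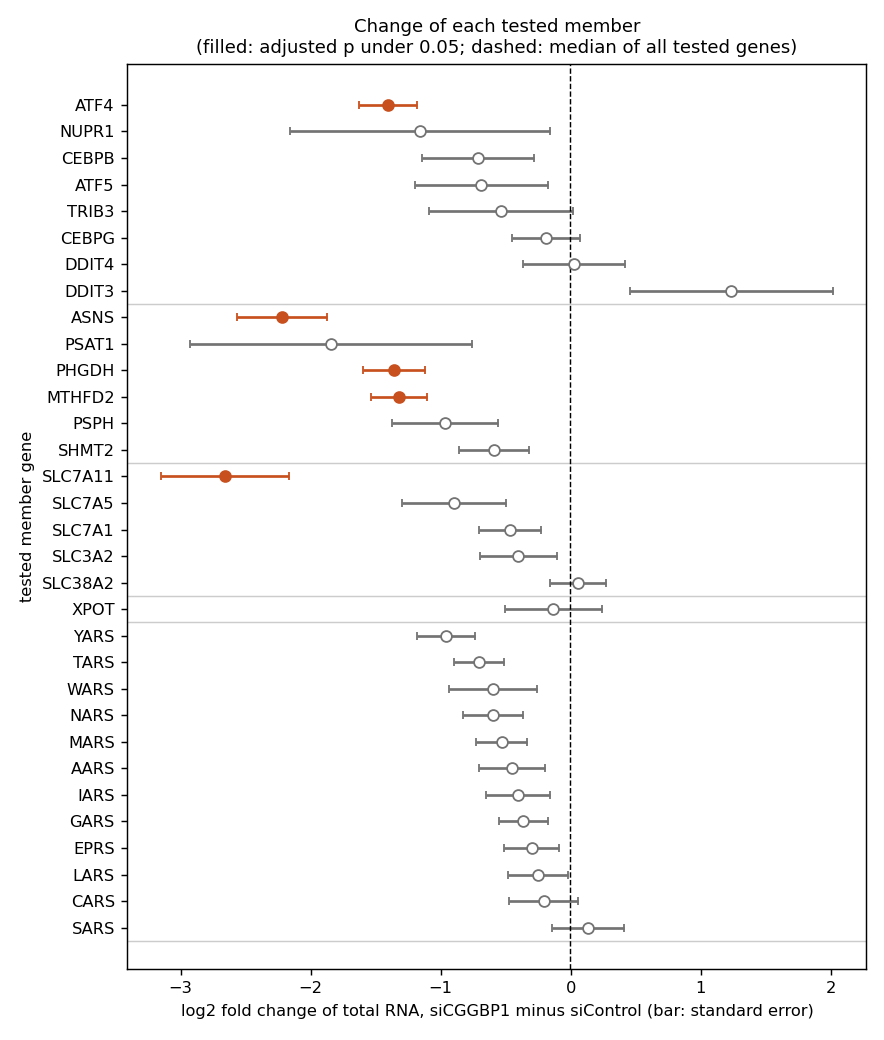
Log2 fold change of total RNA (siCGGBP1 minus siControl) of the 32 tested members with its SE, by role from regulators at the top to synthetases at the bottom; filled points have an adjusted p under 0.05 and the dashed line is the median of all tested genes, -0.003. All 6 synthesis enzymes lie left of the line with a median of -1.34, and the synthetases lie closer to it with a median of -0.43.

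Aminoacyl-tRNA synthetases attach each amino acid to its tRNA. The 12 synthetases had a median log2 fold change of -0.43, from -0.96 for YARS to 0.13 for SARS. In total RNA, 11 had a negative log2 fold change, and 5 were lower without overlap, against 12.3% of all tested genes. None of the 12 was called lower by edgeR, and DESeq2 called 2, TARS and YARS. Of all 10138 tested genes DESeq2 called 609 in either direction and edgeR 178.

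YARS, which charges tyrosine, had 1737, 1800 and 1372 normalized reads in siControl and 831, 872 and 828 in siCGGBP1. The siCGGBP1 mean was 51.6% of the siControl mean, just short of the threshold (log2 fold change -0.96, SE 0.22, adjusted p = 0.0518 by edgeR). TARS, which charges threonine, had 3478, 3045 and 4087 against 2346, 2148 and 2017 normalized reads (log2 fold change -0.70, SE 0.19, adjusted p = 0.0868 by edgeR). These 2 genes lay outside the rule for values by library and were picked after their values were seen. NARS, WARS and MARS had log2 fold changes of -0.60, -0.60 and -0.53, and AARS, IARS, GARS, EPRS, LARS and CARS of between -0.45 and -0.21. WARS was at -0.26 without siControl replicate 2, and AARS at -0.23 without siControl replicate 3.

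SARS, the serine enzyme, was the synthetase with a positive value. It had 1502, 1448 and 738 normalized reads in siControl and 1236, 1536 and 1274 in siCGGBP1, which overlapped (log2 fold change 0.13, SE 0.28, adjusted p = 0.869 by edgeR). Without siControl replicate 3, its lowest library, the log2 fold change was -0.13. XPOT, which carries tRNAs out of the nucleus, had a log2 fold change of -0.13 with overlapping groups.

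The median log2 fold change was -0.45 in the 11 tested members with the motif, -0.60 in the 15 with a window but no match and -0.96 in the 6 with no window. In the members with the motif the log2 fold change ran from -2.22 for ASNS to -0.19 for CEBPG. No test was made, since the members share the libraries.

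**Figure D3:**
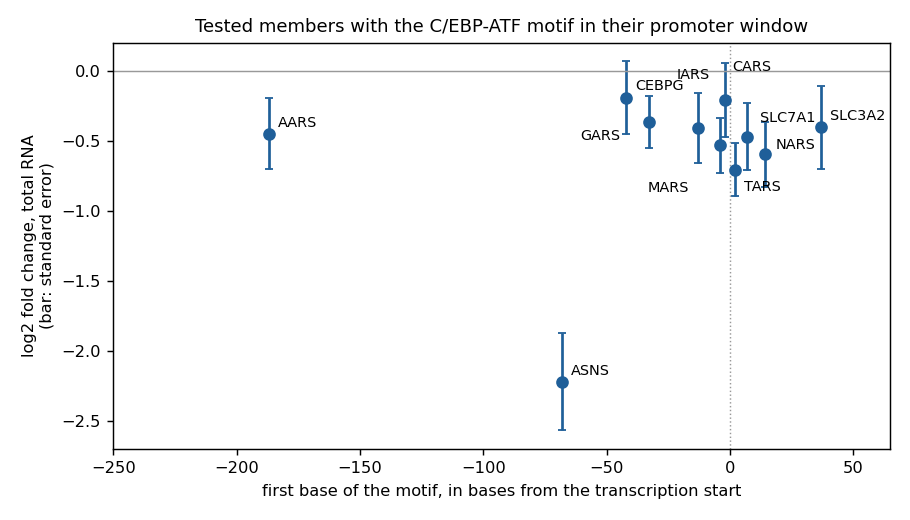
Distance of the first base of the motif from the RefSeq start of transcription, in bases, against the log2 fold change of total RNA with its SE, for the 11 tested members with the motif. Most matches lie within 50 bases of the start and AARS lies farthest upstream, at -187; ASNS, at -68, has the lowest log2 fold change at -2.22.

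Newly synthesized RNA was taken as the read count multiplied by the estimated new-to-total ratio. No member was called in either direction by edgeR, whose lowest adjusted p was 0.993, and 0 had an unadjusted p under 0.05. DESeq2 also called 0. Over all tested genes, 0.0493% were called in either direction by edgeR, and 319 of 10138 had an unadjusted p under 0.05. Of the members, 19 had a negative and 11 a positive log2 fold change, with a median of -0.31 against -0.03 over all tested genes. The median was also -0.31 with genes that had at most 3 new reads in every library of a group set to their bound, and it turned to 0.02 without siControl replicate 2.

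The new RNA values were sparse. Of the 192 ratios of tested members, 54 (28.1%) were 0 or not estimated, and 16 and 17 of these lay in siControl replicate 3 and siCGGBP1 replicate 3, against 4 to 7 in each other library. The biological coefficient of variation, the fitted relative spread between replicates, was 1.78 in new RNA and 0.399 in total RNA.

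The normalized new reads of ATF4 were 329, 397 and 948 under siControl and 183, 371 and 439 under siCGGBP1, which overlapped (log2 fold change -0.75, SE 0.59). Without siControl replicate 3, its highest library, the log2 fold change in new RNA was -0.13. Its new-to-total ratio was 12.2 ± 4.64% (SD, n = 3) in siControl and 19.6 ± 5.07% in siCGGBP1 (two-sided exact permutation test, p = 0.2, adjusted over 5 genes 0.5, where 0.1 is the smallest p that 3 against 3 can give). ASNS had 152, 214 and 111 new reads against 14.8, 48.2 and 114, and its ratio in siCGGBP1 ran from 4.70% to 76.2%. The conversion rate of ASNS was 0.384 per 100 covered T without 4sU and 0.464 pooled over the siControl libraries at 75 µM, so its new reads are uncertain. MTHFD2 had 103, 125 and 350.4 new reads against 71.9, 118 and 0, and its log2 fold change of -1.60 was -0.25 with both libraries numbered 3 left out.

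PHGDH differed in sign between total and new RNA, at -1.36 and 0.87, but the new value rested on 77.3, 11.4 and 0 against 29.7, 44.3 and 87.8 new reads with an SE of 2.35. New reads of SLC7A11 numbered 70.4, 0 and 14.0 under siControl and 0 in each siCGGBP1 library. With a floor of 3 reads in each siCGGBP1 library its new RNA was 9.57-fold lower, which rests mainly on siControl replicate 1. This is not a minimum, since the floor leaves out the error of the estimated ratio and siControl replicate 2 was also at 0. On log2 values with 10 added, limma gave a log2 fold change of -1.42. New reads of SLC7A1 numbered 3.46, 14.2 and 7.01 under siControl and 104, 49.2 and 36.6 under siCGGBP1, without overlap, and those of CEBPB, a member of the regulators, 100.3, 218 and 260.3 under siControl and 75.4, 98.4 and 39.9 under siCGGBP1. These were the members without overlap in new RNA, 1 higher and 1 lower, against 2.89% and 4.45% of all tested genes, and neither was called (adjusted p = 1 for both by edgeR). The exact permutation p of the ratio was 0.6 for ASNS, 0.2 for PHGDH, 1 for MTHFD2 and 0.4 for SLC7A11, none of which can go below 0.1.

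The T-to-C conversions themselves were also compared. Pooled over the 3 siControl libraries, the tested regulators had a median of 0.54 conversions per 100 covered T, the transporters 0.288, the synthetases 0.135 and the synthesis enzymes 0.0939, beside 0.198 over all tested genes. Without 4sU the median of all tested genes was 0.013. DDIT4 had the highest rate of the tested members at 1.89, followed by DDIT3 at 1.31 and CEBPB at 1.01, and PSAT1 the lowest at 0.0128. The estimated ratio of DDIT4 was 54.0%, 58.5% and 59.6% in the siControl libraries. These rates are not corrected for conversions seen without 4sU, which were 0.836 for TRIB3, 0.388 for CEBPB, 0.384 for ASNS and 0.313 for DDIT4. The synthetases had a median of 0.0122 without 4sU, but some had much more. MARS had 0.173 without 4sU and 0.223 in siControl at 75 µM, and GARS 0.0823 and 0.119. NARS had 0.0908 and 0.183, and YARS 0.0663 and 0.178. For TRIB3 the rate without 4sU is above its own rate of 0.532 with 75 µM 4sU. In the single siControl library with 200 µM 4sU the rate was 2.02 for DDIT4, 0 for DDIT3 and 0.769 for CEBPB. Over all genes that library had 0.218 conversions per 100 covered T, and the siControl libraries at 75 µM had 0.234, 0.245 and 0.183. The rates thus did not rise with the dose throughout, and the reason was not tested.

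**Figure D4:**
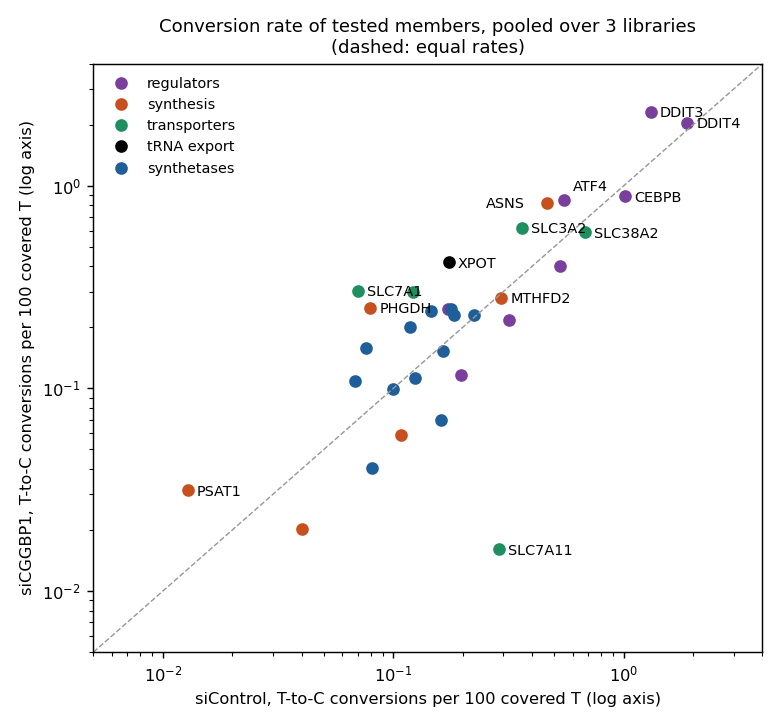
T-to-C conversions per 100 covered T (both axes logarithmic) of the 32 tested members, pooled over the 3 siControl libraries (horizontal) and the 3 siCGGBP1 libraries (vertical), coloured by role; the dashed line marks equal rates. DDIT4 (1.89 and 2.05) and DDIT3 (1.31 and 2.32) lie at the top, most synthetases near 0.135 on the horizontal axis, and SLC7A11 far below the line at 0.288 and 0.0161.

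The single siControl libraries with other 4sU doses are given as values. For ATF4, the 0 and 200 µM libraries had 2901 and 3653 normalized reads, for PHGDH 1664 and 2108, for MTHFD2 3193 and 2144 and for SLC7A11 378 and 115. In these 4 genes every siCGGBP1 library lay below all 5 siControl libraries. ASNS was different, with 485 and 279.7 normalized reads, both below the 3 siControl libraries at 75 µM, and the second within the siCGGBP1 range of 149.7 to 306. The synthesis enzymes that were not called were also not separate. SHMT2 had 679 and 681 normalized reads, both within its siCGGBP1 range of 503 to 727. PSAT1 had 208 and 0, beside a siCGGBP1 range of 0 to 175, and PSPH 550 and 109, beside 256 to 268. In all, 9 of the 32 tested members had every siCGGBP1 library below all 5 siControl libraries, against 7.26% of all tested genes. Beside ATF4, PHGDH, MTHFD2 and SLC7A11 these were MARS, NARS, TARS, GARS and YARS. SLC7A11 reached the read filter through its siControl libraries alone. Among the 10138 tested genes, 71 had 0 reads in the 0 µM library and 112 in the 200 µM library. Since there is 1 library at each of these doses, dose and library cannot be told apart.

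**Figure D5:**
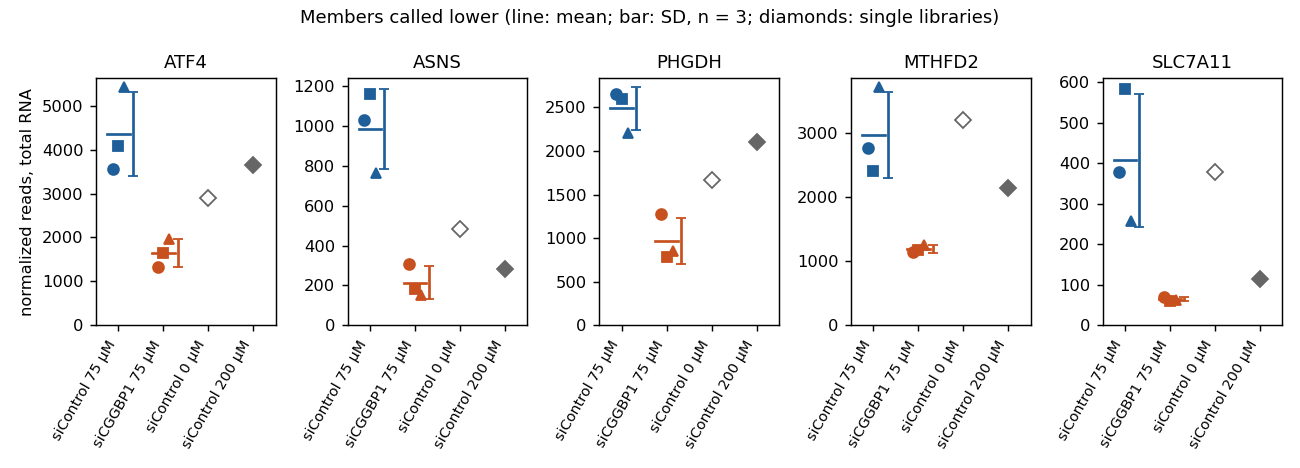
Normalized reads of total RNA, from 0 upwards, of the 5 members called lower, in siControl (blue) and siCGGBP1 (orange) at 75 µM 4sU with the mean and SD (n = 3; marker shape gives the replicate), and in the single siControl libraries at 0 µM (open diamond) and 200 µM (filled diamond). In ASNS both diamonds, 485 and 279.7, lie below the siControl replicates, and in ATF4, PHGDH, MTHFD2 and SLC7A11 both lie above all siCGGBP1 replicates.

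Genes around the ATF4 programme were examined with lists of known genes. Over all tested genes, edgeR called 1.21% lower, 12.3% were lower without overlap, and DESeq2 called 609 of 10138 in either direction. Upstream, 17 genes, namely the eIF2 kinases, eIF2 and eIF2B subunits, phosphatase regulators and GCN1, IMPACT and DNAJC3, which modulate the kinases, had a median log2 fold change of -0.05. By edgeR 1 was called lower, and by DESeq2 2, EIF2S1 and EIF2S2. The gene called by edgeR was EIF2S1, which encodes the eIF2 subunit whose phosphorylation starts the response, with 3612, 3529 and 3979 normalized reads in siControl and 1590, 1397 and 2384 in siCGGBP1 (log2 fold change -1.05, SE 0.22, adjusted p = 0.0336 by edgeR). EIF2B1, a subunit of the exchange factor for eIF2, had -0.80 (adjusted p = 0.163 by edgeR).

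Of 23 other ATF4 targets, 17 were tested and 1 was called lower, SLC1A5, a glutamine transporter (log2 fold change -0.95, SE 0.21, adjusted p = 0.0417 by edgeR). DESeq2 called 2, SLC1A5 and GPT2. The median of the 17 was -0.07, with GPT2, an alanine transaminase, at -1.50 (adjusted p = 0.094 by edgeR) and KLHL24 at 1.16 (adjusted p = 0.394 by edgeR) as the outermost values. The difference between this list and the members was not tested.

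The 15 genes of the other unfolded protein response arms had a median of -0.34. Of these, 7 (46.7%) were lower without overlap, against 50.0% of the members and 12.3% of all tested genes. By edgeR 0 were called, and DESeq2 called 2, HSPA5 and HSP90B1. HSPA5, the main chaperone of the endoplasmic reticulum, had 5198, 5303 and 4788 normalized reads in siControl and 2801, 2808 and 3520 in siCGGBP1 (log2 fold change -0.74, SE 0.18, adjusted p = 0.0569 by edgeR). EDEM1, which targets misfolded proteins for degradation, had -0.77 (adjusted p = 0.352 by edgeR).

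The 11 remaining cytosolic synthetases and complex partners had a median of -0.47. By edgeR 0 were called. DESeq2 called 1 in each direction, AIMP2 lower and QARS higher. EEF1E1, a partner of the multisynthetase complex, had -1.06 (adjusted p = 0.226 by edgeR), and QARS, the glutamine enzyme, had 0.70 without overlap (adjusted p = 0.0873 by edgeR). The 13 tested mitochondrial synthetases had a median of 0.15, from -1.14 for TARS2, with 0 reads in siCGGBP1 replicate 3, to 1.02 for NARS2. Of these, 0 were called by edgeR or DESeq2.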

How the data were processed

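The deposited values are expected counts per gene, of reads, of conversions from T to C and of the T positions covered. They were made by the authors with GRAND-SLAM after removal of ribosomal reads (Bowtie2 2.3.0) and mapping to GRCh38 (STAR 2.5.3a, per the labels). The counts are not normalized, and 30 of the 34 members have a fractional read count in at least 1 library. The new-to-total ratio was deposited by the authors as a fraction, the maximum a posteriori estimate. No molecular identifiers are in the values, so floors and bounds cover counting error only.

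Read counts were rounded, and genes reaching 100 reads in 3 or more of the 6 libraries were fitted (10138 of 18388) with edgeR 4.0.16 in R 4.3.3 (TMM, quasi-likelihood test, Benjamini-Hochberg over all tested genes, called at an adjusted p under 0.05). SE was derived from the log2 fold change and the F statistic (its size over the root of F). New RNA was reads times ratio, with scale factors from total reads. Ratios of the 5 called members were compared by exact permutation tests (scipy 1.17.1). Spike-in reads were not used here.

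Alternatives were DESeq2 1.42.0 (Wald test), its size factors, 2 other filters, a fold threshold, a replicate block, leaving out each library and, for new RNA, limma 3.58.1 on log2 values with 1 or 10 added, the posterior mean ratio, TMM on new reads and conversion counts. Leaving out both libraries numbered 3 was added after seeing the data.

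Values in every library are given for ATF4, DDIT3, ASNS, TRIB3 and CHAC1, for called members and for the 6 largest log2 fold changes in each direction, of which 4 were positive. From each other list, called genes and the 2 largest absolute log2 fold changes are named. The members and lists were chosen with earlier results of these data known. Gene positions are from GENCODE on GRCh38, and promoter windows from RefSeq (GRCh38.p14). Of the members, 12 have a pseudogene that carries their name, which was not among the genes counted, so shared reads remain uncertain for them.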

Additional observations from a re-analysis of the deposited data

Results flagged for a closer look

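DDIT4, the inhibitor of mTORC1, had 1378 normalized reads in the single siControl library without 4sU and 926.9 in that with 200 µM 4sU. Both values lie outside the comparison and above the 3 siControl libraries at 75 µM, which had between 248 and 461. No group of 4 or more libraries was available for a search for outlying samples.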

How the results depend on the processing

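The number of members called lower in total RNA was 5, and 7 with DESeq2 or without a filter (TARS and YARS added). Over all 10138 tested genes DESeq2 called 609 in either direction and edgeR 178. The members called lower numbered 6 with a replicate block and 6 with both libraries numbered 3 left out. Leaving out 1 library gave between 2 and 5 calls (2 without siCGGBP1 replicate 1, 3 without siCGGBP1 replicate 2 or siControl replicate 1 or 2). With the replicate block, YARS was added at an adjusted p of 0.0438 by edgeR. Same-numbered libraries deviated together weakly (correlations 0.105, 0.172 and 0.0837), while differently numbered pairs had correlations from -0.099 to -0.0193. The main test used no block, and the labels do not say whether same-numbered libraries were made together. The median of the members ran from -0.65 to -0.45 in total RNA and from -0.504 to 0.0231 in new RNA when 1 library was left out, and that of the synthetases was -0.49 with both libraries numbered 3 left out. Leaving out 1 library moved DDIT4 between -0.264 and 0.299, SLC38A2 between -0.0617 and 0.197, XPOT between -0.282 and 0.0573 and SARS between -0.126 and 0.303. With both libraries numbered 3 left out SARS was at -0.0795 and PHGDH in new RNA at -0.241. The cause was not tested. Of 384 values of members in total RNA under the alternatives, 361 kept their direction and side of the threshold, and 28 of 32 members never changed sign. The members with the promoter motif numbered 13 of 28 (46.4%) when 7 letters, TGATGNA, were required. The share of the tested genes with a window then rose from 2.72% to 7.46%, and that of all windows from 3.62% to 9.99%. Of the new RNA values, 28.1% rest on a ratio that was 0 or not estimated. The part of depth in this was not tested.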
